A study of Rattus norvegicus with 2 samples.

Results

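The 10 genes described here handle iron and heme, and were taken by name from the 42172 genes listed in the deposited count tables. They were Ftl1 and Fth1 (ferritin), Hmox1 (heme oxygenase), Hp and Hpx (haptoglobin and hemopexin), Tfrc, Slc11a1 and Slc40a1 (iron and metal transporters), and Gpx4 and Slc7a11 (defence against lipid peroxides). All 10 had at least 1 UMI, or counted transcript molecule, in both libraries. Together they held 0.42% of the UMIs of the explosion library and 1.54% of those of the control library.

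The study asked how lung cells vary after a blast. It holds 1 library of lung cells after a gas explosion, called Explosion, and 1 of unexposed animals, called Control; strain, age, sex, the time after exposure and the number of rats in a library are not given in the sources used here. Both came from SPF-housed animals, and in both the lung was digested with enzymes, red cells were lysed and dead cells were removed before droplet capture with 10x Genomics 3' chemistry. With 1 library per group there is no replicate check, so every interval below covers counting error only, and the exposure cannot be told apart from any other difference between these libraries.

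Iron that enters a cell is either used, exported or stored inside ferritin, a shell built from light (Ftl1) and heavy (Fth1) chains of which the heavy chain oxidizes the iron. Lung macrophages take up dying cells and red cells, break heme down with heme oxygenase and hold or export the iron it releases. Iron regulatory proteins bind the ferritin and transferrin receptor messages. The amount of ferritin protein therefore also depends on steps that RNA counts do not see.

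The Explosion library was far shallower. After filters it held 11845 cells with a median of 532 UMIs, against 19231 cells with a median of 4677 UMIs in Control, and 5580 of its cells lay under 500 UMIs, against 0 in Control. Ribosomal protein genes took 5.78% of UMIs in Explosion and 10.7% in Control, mitochondrial ribosomal RNA 3.54% in Explosion and 0.69% in Control, and the club cell secretoglobin Scgb1a1 6.11% in Explosion and 24.0% in Control. The part of these differences in the ratios below was not tested. There were 85 cell barcodes that occurred in both libraries. Of 30 clusters, 26 could be named from their markers, and 20 drew over 80% of their cells from 1 library. Comparisons were made in 8 classes, each of 200 cells or more per library. Macrophage-like cells numbered 1972 in Explosion and 8834 in Control, and 1 of their 14 markers, Marco, had 0 UMIs in every class of both libraries. Explosion macrophage-like cells lay mostly in cluster 4 (1734 cells, against 63 in Control), and Control ones in clusters 7, 23 and 24 (4914, 1920 and 1684 cells, against 29, 16 and 15 in Explosion). T-like and B-like cells were split in the same way, and no cluster of either held 50 cells of both libraries. NK-like cells formed 1 cluster (500 cells in Explosion and 458 in Control), and most secretory-like and ciliated-like cells of both libraries shared a cluster each. At the finer Leiden resolution 2, NK-like cells split into 513 Explosion and 48 Control, and 15 Explosion and 417 Control cells. Most Explosion secretory-like cells then lay in a cluster of 603 Explosion and 43 Control cells. The secretory-like cluster with the most Control cells held 1234 of them and 43 Explosion cells. For the ferritin genes and for Gpx4, values from clusters with at least 50 cells of both libraries are also given where they exist.

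Levels are CPM, the UMIs of a gene summed over a class and scaled to the same total in each class and library, and a ratio is Explosion CPM over Control CPM. This ratio was above 1 for most genes tested in every class. Its median over genes with a mean of at least 50 CPM was 0.47 on the log2 scale in macrophage-like cells, 0.43 in monocyte-like cells, 1.34 in secretory-like cells and 0.92 in ciliated-like cells, and between 0.46 and 0.61 in the other 4 classes. A gene called lower here therefore went against the median gene. TMM scaling, which weights abundant genes more, divided the ratios by a further 1.41 to 3.16, by 1.9 in macrophage-like cells.

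In macrophage-like cells, 5 of the 10 members passed the minimum of 50 CPM. Of these, Ftl1, Fth1 and Gpx4 were at least 2-fold lower in Explosion and Hmox1 was at least 2-fold higher, while Slc11a1 did not reach 2-fold. For comparison, 12.5% of all genes tested in this class were at least 2-fold lower and 27.5% at least 2-fold higher. Measured from the class median, the same 3 members were at least 2-fold below it, where 21.6% of genes were, and Hmox1 was at least 2-fold above it, where 11.0% of genes were. The median log2 ratio of the 5 members was -1.44.

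**Figure D1:**
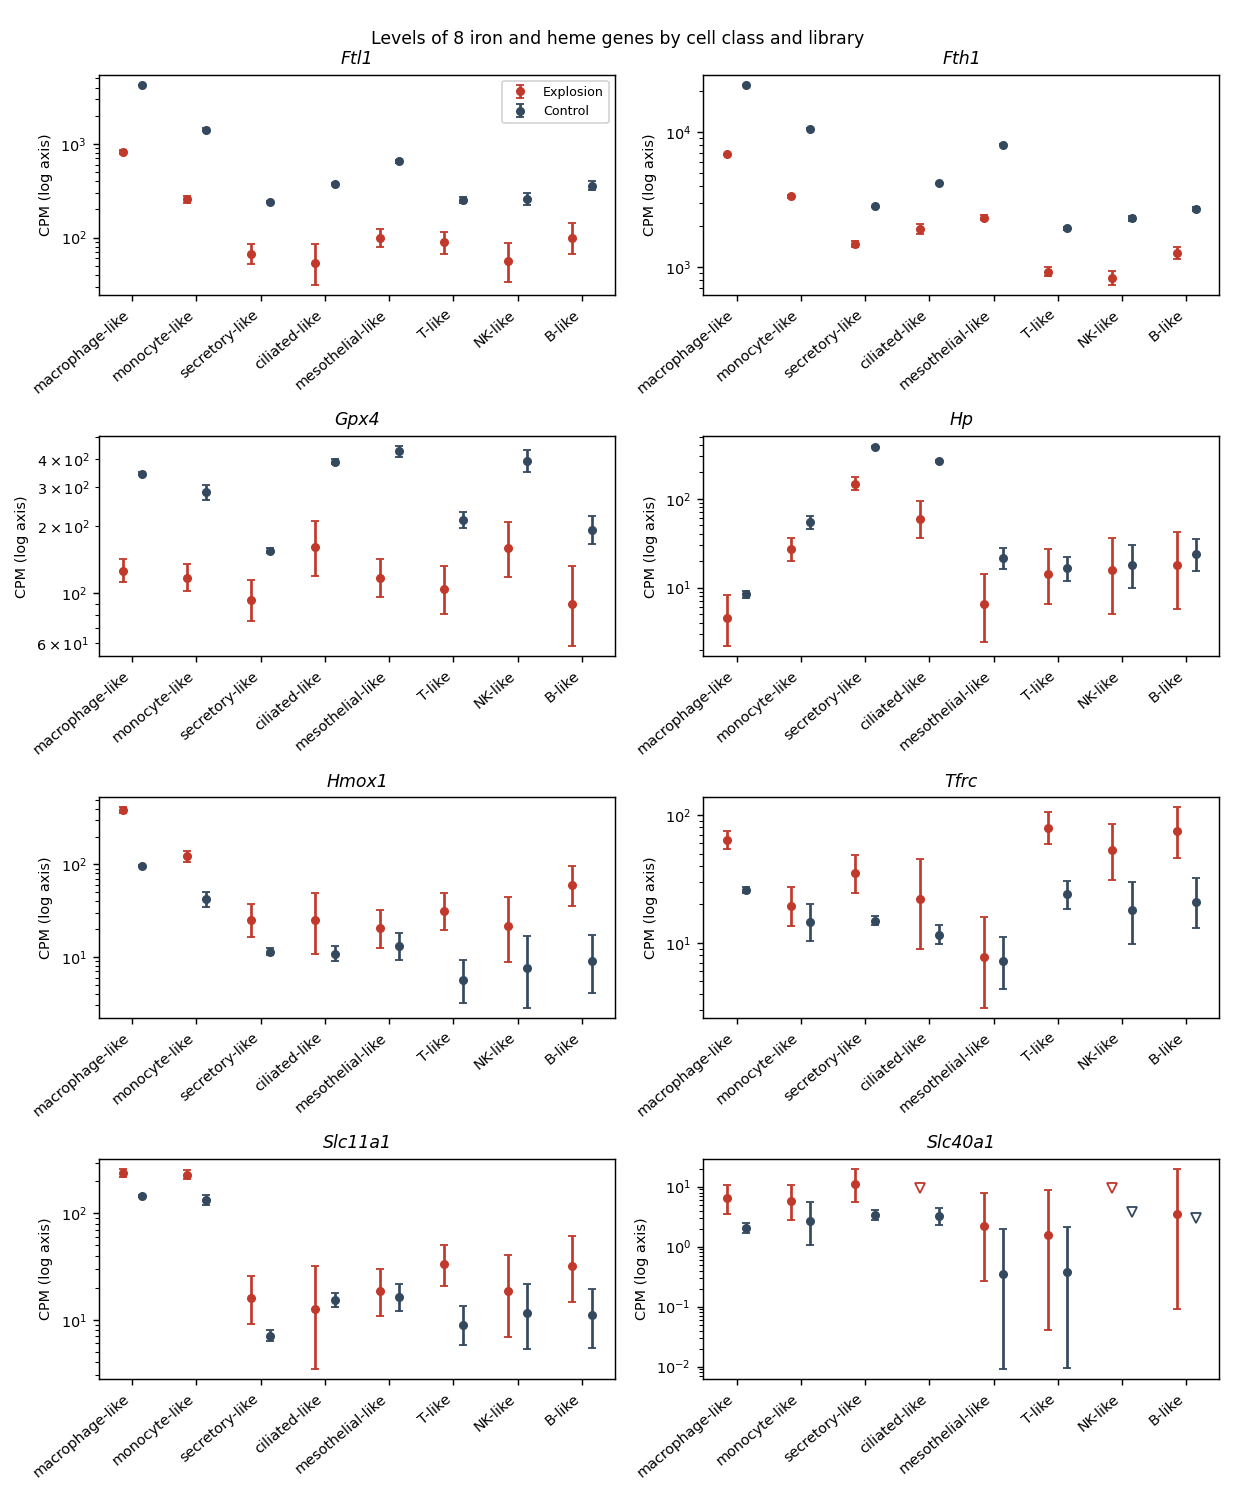
CPM (log axis) of 8 members in each compared cell class, Explosion in red left of Control in blue, 1 point per library with its exact 95% Poisson interval; open triangles mark the limit that 0 UMIs allow. Ftl1, Fth1 and Gpx4 lie lower in Explosion in all 8 classes, and Hmox1 is highest in macrophage-like cells, at 387 CPM in Explosion and 95.7 CPM in Control.

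Both ferritin genes were highest in macrophage-like cells in both libraries. Ftl1, the light chain, had 821 CPM in Explosion macrophage-like cells (1807 UMIs) and 4282.4 CPM in Control ones (236251 UMIs), a ratio of 0.192 (0.183 to 0.201). Fth1, the heavy chain, had 6820 CPM in Explosion and 22415.7 CPM in Control, a ratio of 0.304 (0.299 to 0.309). These intervals exclude a ratio of 1. The same direction held in the 2 macrophage-like clusters with enough cells of both libraries. In cluster 4, Ftl1 was at 831 CPM in Explosion and 2997.1 CPM in Control, a ratio of 0.277 (0.25 to 0.309), and the Fth1 ratio was 0.41. In cluster 16, which complement C1qa leads, the ratios were 0.153 for Ftl1 and 0.264 for Fth1. Scaling by TMM gave 0.101 for Ftl1 and 0.16 for Fth1 in macrophage-like cells.

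Monocyte-like cells came next in the order of Ftl1 levels in Explosion and were lower by nearly the same factor. They had 256 CPM of Ftl1 in Explosion and 1414.7 CPM in Control (ratio 0.181, 0.164 to 0.2), and 3357.4 CPM of Fth1 in Explosion and 10567.4 CPM in Control (ratio 0.318). Their Explosion cells lay mostly in cluster 1 (2888 cells, against 32 in Control), led by Pou2f2 and Spn. Within cluster 6, shared by 969 Explosion and 321 Control cells, the ratios were 0.171 for Ftl1 and 0.296 for Fth1. Cluster 6 also had 3 dendritic markers. In finer clusters (Leiden resolution 2), an Fcnb-led monocyte-like cluster held 783 Explosion and 142 Control cells. An unnamed cluster with dendritic markers held 203 Explosion and 187 Control cells. The part of such a difference in cell mix in the cluster 6 ratios was not tested.

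In the airway epithelium both ferritin genes were also lower. Secretory-like cells, marked by Scgb1a1, had 67.4 CPM of Ftl1 in Explosion (67 UMIs) and 241 CPM in Control (9109 UMIs), a ratio of 0.28 (0.217 to 0.355). Their Fth1 was at 1481.4 CPM in Explosion and 2813.2 CPM in Control, a ratio of 0.527 (0.5 to 0.554), which does not reach 2-fold by CPM but lies 2.27 log2 units below the median gene of that class. Ciliated-like cells, marked by Foxj1 and dynein genes, had 53.6 CPM of Ftl1 in Explosion (17 UMIs) and 373 CPM in Control (4366 UMIs). That ratio, 0.144 (0.0836 to 0.23), was the lowest of Ftl1 among the 8 classes in value, but its interval overlapped those of all other classes except T-like cells. In the epithelial clusters that hold cells of both libraries, the Ftl1 ratio was 0.298 in secretory-like cluster 2 and 0.138 in ciliated-like cluster 13. Finer clusters separated most secretory-like cells of the libraries, as given above. The part of this separation in the cluster 2 ratio was not tested.

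The remaining classes gave the same direction. Mesothelial-like cells had 99.8 CPM of Ftl1 in Explosion and 650 CPM in Control, a ratio of 0.154. In mesothelial-like cluster 0, the one with 50 cells of both libraries (1014 in Explosion and 52 in Control), it was 0.288 (0.18 to 0.478), and that of Fth1 was 0.434. T-like cells had 88.9 CPM in Explosion and 254 CPM in Control, NK-like cells 56.1 CPM in Explosion and 259 CPM in Control, and B-like cells 100 CPM in Explosion and 359 CPM in Control. In none of these did the intervals of the libraries overlap. Over all 8 classes the log2 ratio of Ftl1 ran between -2.76 and -1.5, and that of Fth1 between -1.8 and -0.92. Among the 12 clusters with at least 50 cells of both libraries, the interval of the ratio lay below 1 in 12 for Ftl1 (0.0576 to 0.309) and in 12 for Fth1 (0.185 to 0.51). These 12 include NK-like cluster 11 and the smaller fibroblast-like, blood endothelial-like, type 2 alveolar-like and ILC2-like groups. In blood endothelial-like cells Ftl1 had 69.7 CPM in Explosion (8 UMIs) and 1209.5 CPM in Control (437 UMIs), which gave the lowest of the Ftl1 cluster ratios. Explosion Ftl1 rests on 3 UMIs in the type 2 alveolar-like and 9 in the ILC2-like group. The smaller groups were not set against the macrophage markers described next. For these counts of clusters, and that of Gpx4 below, the share of all genes is not given.

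In NK-like and B-like cells Ftl1 was little above the macrophage markers, when both are taken as a share of their macrophage-like level. Summed over its 14 genes, the macrophage marker list stood in NK-like cells at 6.27% of its macrophage-like level in Explosion and 5.57% in Control. Ftl1 stood there at 6.84% of its macrophage-like level in Explosion and 6.04% in Control, and in B-like cells at 12.2% in Explosion and 8.39% in Control, where the marker list stood at 10.8% in Explosion and 7.52% in Control. How much of the Ftl1 in NK-like and B-like cells is free RNA from macrophage-like cells was not tested. Its lower values there are therefore not counted as a result separate from those in macrophage-like cells. In T-like cells the marker list stood at 7.13% in Explosion and 5.27% in Control, and Ftl1 at 10.8% in Explosion and 5.92% in Control. Mesothelial-like cells had the list at 4.21% in Explosion and 12.3% in Control, and Ftl1 at 12.2% in Explosion and 15.2% in Control. Ciliated-like cells had the list at 4.72% in Explosion and 5.49% in Control, and Ftl1 at 6.52% in Explosion and 8.7% in Control. Lower Ftl1 in T-like, mesothelial-like and ciliated-like cells is likewise not counted as a separate result. In secretory-like cells the marker list was at 2.64% in Explosion and 2.73% in Control, while Ftl1 was at 8.21% in Explosion and 5.63% in Control, and Fth1 at 21.7% in Explosion and 12.6% in Control. The part of this free RNA in the class ratios was not tested.

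The ratio of the light chain was below that of the heavy chain in all 8 classes, so the balance of ferritin messages differed too. Macrophage-like cells had 0.12 Ftl1 UMIs per Fth1 UMI in Explosion (0.115 to 0.126) and 0.191 in Control (0.19 to 0.192). Monocyte-like cells had 0.0763 in Explosion and 0.134 in Control, secretory-like cells 0.0455 in Explosion and 0.0857 in Control, and ciliated-like cells 0.028 in Explosion and 0.0893 in Control. In T-like and NK-like cells the intervals overlapped. The T-like values were 0.0961 in Explosion (0.0717 to 0.127) and 0.131 in Control (0.121 to 0.142). This count of one gene per count of another in the same cells does not depend on how the library is scaled. The files also list Ftl1l1, whose name marks it as a ferritin light chain copy, with 6 UMIs in Explosion and 128 in Control macrophage-like cells. Adding it left the macrophage-like Ftl1 ratio at 0.192, and adding LOC100360087 as well, which the RefSeq table also lists under Ftl1, gave 0.199.

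**Figure D2:**
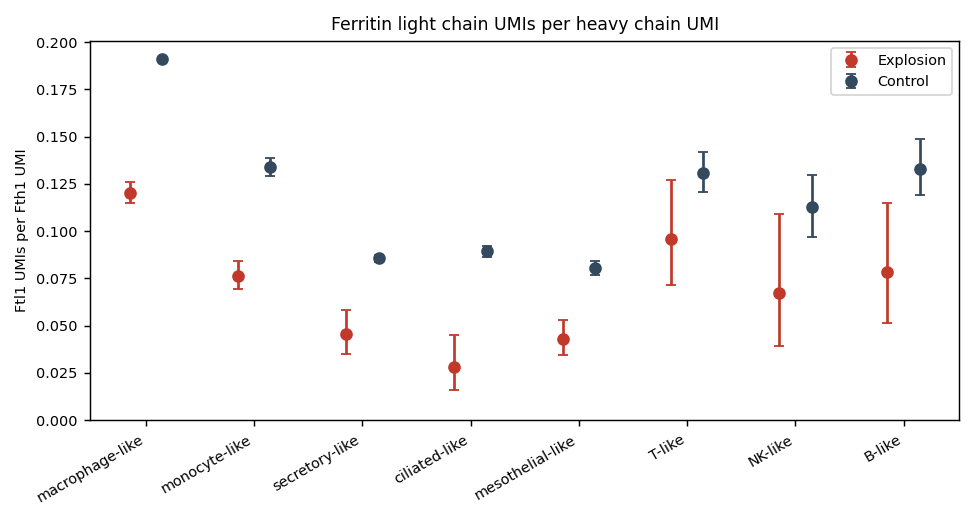
Ftl1 UMIs per Fth1 UMI in the 8 compared classes, Explosion in red left of Control in blue, with exact 95% counting intervals. The value is lower in Explosion in all 8 classes, for instance 0.12 in Explosion against 0.191 in Control macrophage-like cells, and the intervals overlap for T-like and NK-like cells.

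Hmox1, which opens the heme ring and frees its iron, moved the other way. Macrophage-like cells had 387 CPM in Explosion (852 UMIs) and 95.7 CPM in Control (5282 UMIs), a ratio of 4.04 (3.76 to 4.35). The TMM value was 2.12. Within cluster 4 the level was 381 CPM in Explosion (773 UMIs) and 74.8 CPM in Control (11 UMIs), a ratio of 5.1 (2.83 to 10.3). Leaving out the C1qa-led cluster gave a ratio of 4.09. Hmox1 was highest in macrophage-like cells in both libraries, with monocyte-like cells next, although in Control the monocyte-like interval overlapped that of the class after it.

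In monocyte-like cells Hmox1 had 123 CPM in Explosion (214 UMIs) and 42 CPM in Control (109 UMIs), a ratio of 2.92 (2.31 to 3.72). It passed the minimum in this class through its Explosion level. Classing cells one by one by marker score in place of clusters gave 1.56. In this class too, 3 of 5 members that passed were at least 2-fold lower, where 12.4% of all genes were, and 1 was at least 2-fold higher, where 25.1% of all genes were.

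Elsewhere Hmox1 was scarce. The ratio in T-like cells was 5.63, on 20 UMIs in Explosion and 15 in Control. Hmox1 stood there at 8.2% of its macrophage-like level in Explosion and 5.89% in Control, close to the macrophage marker list. In B-like cells the ratio was 6.76 (2.85 to 17.2), on 17 UMIs in Explosion and 9 in Control. Hmox1 stood there at 15.7% in Explosion and 9.38% in Control, where the marker list stood at 10.8% and 7.52%. It did not pass the minimum in either class, and the part of free RNA was not tested. In secretory-like cells Hmox1 had 25.2 CPM in Explosion (25 UMIs) and 11.4 CPM in Control (432 UMIs). That ratio of 2.2 lies under the median gene of that class and turned to 0.697 with TMM scaling.

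At equal depth the same order was seen cell by cell. After each cell was thinned to 500 UMIs, 15.3% of 1766 Explosion macrophage-like cells held an Hmox1 UMI (13.7% to 17.1%), against 4.18% of 8834 Control cells (3.77% to 4.62%). Without thinning the shares were 29.6% in Explosion and 34.3% in Control, at median depths of 1119.5 UMIs in Explosion and 5802.5 UMIs in Control. Ftl1 was found in 32.2% of thinned Explosion cells and 81.7% of thinned Control cells. In B-like cells 2 of 69 thinned Explosion cells (2.9%) and 2 of 820 Control cells (0.244%) held an Hmox1 UMI. B-like cells had median depths of 320.5 UMIs in Explosion and 1158.5 UMIs in Control, and 707 of the Explosion cells were too shallow to thin.

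**Figure D3:**
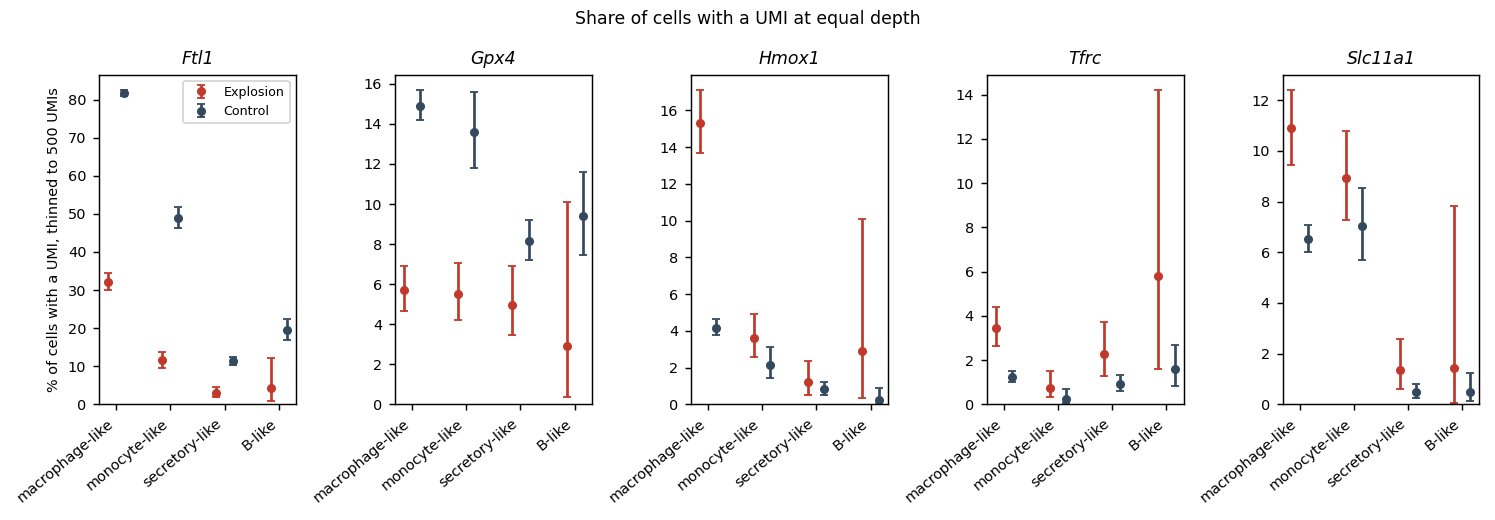
Percent of cells with at least 1 UMI of 5 members after thinning every cell to 500 UMIs, in 4 classes, Explosion in red left of Control in blue, with exact (Clopper-Pearson) 95% intervals. In macrophage-like cells Ftl1 and Gpx4 are found in fewer Explosion than Control cells, and Hmox1, Tfrc and Slc11a1 in more.

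Of the secreted scavengers, Hp was read mainly in the epithelium. Hp, which binds free hemoglobin, was highest in secretory-like cells in both libraries, at 148 CPM in Explosion (147 UMIs) and 386 CPM in Control (14573 UMIs), a ratio of 0.383 (0.324 to 0.451). Within secretory-like cluster 2 the ratio was 0.411. In ciliated-like cells Hp had 59.9 CPM in Explosion (19 UMIs) and 267 CPM in Control (3126 UMIs), a ratio of 0.224 (0.135 to 0.351). Finer clusters (Leiden resolution 2) gave 0.769 there. Hp in ciliated-like cells stood at 40.5% of its secretory-like level in Explosion and 69.2% in Control. Scgb1a1 stood there at 41.6% of its secretory-like level in Explosion and 60.7% in Control, and its part in the ciliated-like Hp ratio was not tested. In secretory-like cells 2 of the 4 members that passed were at least 2-fold lower (all genes, 5.43%), and in ciliated-like cells 4 of 4 were (all genes, 11.4%). Hp is among these 4, and at Leiden resolution 2 its 0.769 was not past 2-fold. There an unnamed cluster with ciliated and 9 secretory markers held 36 Explosion and 506 Control cells, outside the ciliated-like class. Hpx, which binds free heme, had 11 UMIs in Explosion (1.32 CPM) and 103 in Control (0.863 CPM) over all kept cells. It passed the minimum in no class.

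Tfrc, the transferrin receptor through which cells import iron, had more CPM in Explosion in all 8 classes. The interval of the ratio took in 1 in monocyte-like (1.33, 0.813 to 2.17), mesothelial-like (1.07, 0.384 to 2.64) and ciliated-like cells (1.9, 0.749 to 4.02). With TMM scaling the ratio was below 1 in monocyte-like (0.943), mesothelial-like (0.698), secretory-like (0.748) and ciliated-like cells (0.864). Macrophage-like cells had 64.1 CPM in Explosion (141 UMIs) and 26 CPM in Control (1432 UMIs), a ratio of 2.47 (2.06 to 2.94), which fell short of the minimum mean of 50 CPM and became 1.3 with TMM scaling. Tfrc passed the minimum in T-like cells only, with 79.4 CPM in Explosion (50 UMIs) and 24 CPM in Control (64 UMIs). That ratio was 3.3 (2.23 to 4.85), and 1.84 with TMM scaling. In B-like cells Tfrc had 75 CPM in Explosion and 21 CPM in Control, on 21 UMIs each. Tfrc was at 124% of its macrophage-like level in Explosion T-like cells and 92.6% in Control ones, well above the macrophage marker list. In T-like cells 3 of 4 members that passed were at least 2-fold lower (all genes, 10.4%) and Tfrc was the one at least 2-fold higher (all genes, 33.8%), having passed the minimum only through its Explosion level. In mesothelial-like, B-like and NK-like cells 3 of 3 members that passed were at least 2-fold lower. Of all genes, 16.1%, 10.7% and 8.02% were. For T-like, mesothelial-like, B-like and NK-like cells these members include Ftl1, whose free RNA part was not tested.

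**Figure D4:**
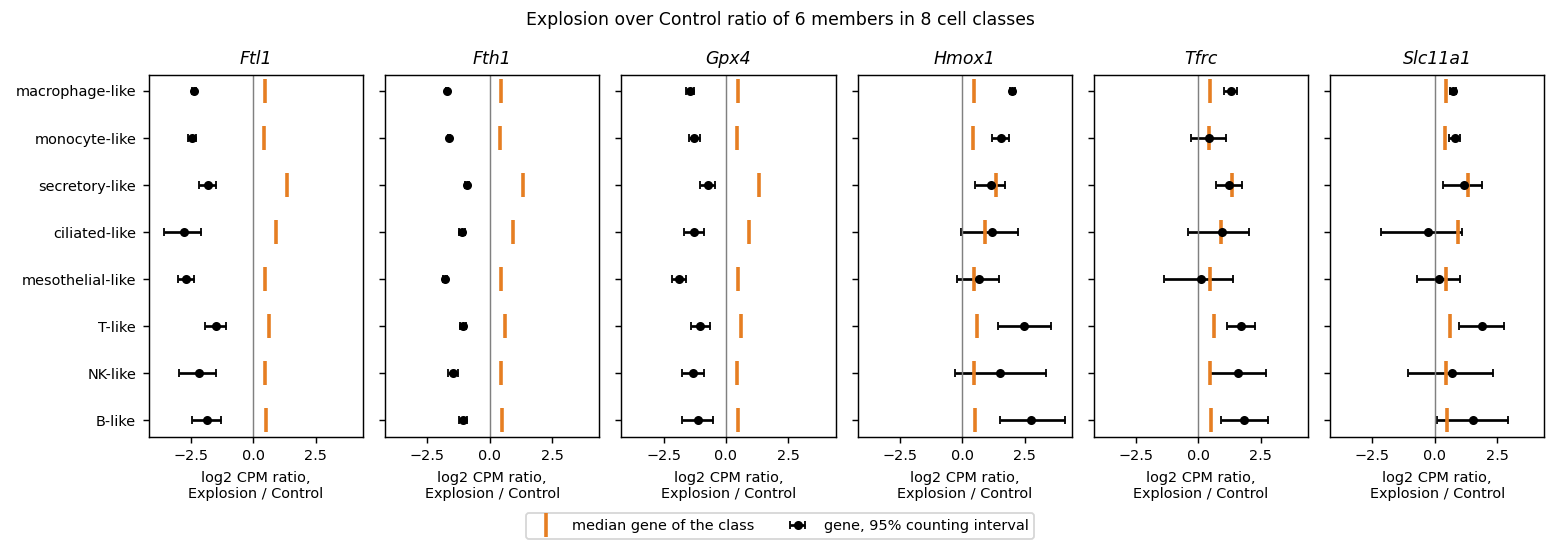
Log2 ratio of Explosion over Control CPM for 6 members in the 8 compared classes, with 95% counting intervals (black); the orange bar marks the median gene of each class. Ftl1, Fth1 and Gpx4 lie left of 0 and of the orange bar in all 8 classes. Of points that passed the minimum of 50 CPM, Hmox1 and Slc11a1 in macrophage-like and monocyte-like cells and Tfrc in T-like cells lie right of both. Some points under that minimum do too, such as Hmox1 in T-like and B-like cells.

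Slc11a1, a metal transporter of the phagosome membrane, was almost as high in monocyte-like as in macrophage-like cells. In macrophage-like cells it had 241 CPM in Explosion (531 UMIs) and 145 CPM in Control (8007 UMIs), a ratio of 1.66 (1.52 to 1.82). Monocyte-like cells had 231 CPM in Explosion and 133 CPM in Control, a ratio of 1.74 (1.5 to 2.01). Neither ratio reached 2-fold, and the macrophage-like one turned to 0.873 with TMM scaling, so no direction is given. In Control, neutrophil-like cells had 120 CPM and overlapped the monocyte-like interval.

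Slc40a1, or ferroportin, the iron exporter, was close to its detection limit. Macrophage-like cells had 6.36 CPM in Explosion (14 UMIs) and 2.03 CPM in Control (112 UMIs). In the C1qa-led cluster it was at 53 CPM in Explosion (5 UMIs) and 15 CPM in Control (6 UMIs). Fibroblast-like cells had 34.4 CPM in Explosion (10 UMIs) and 19 CPM in Control (6 UMIs). It passed the minimum in no class, and at these counts no difference is read.

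Gpx4, which reduces lipid peroxides and is the enzyme that holds off ferroptosis, was lower in Explosion in all 8 classes. Macrophage-like cells had 126 CPM in Explosion (278 UMIs) and 344 CPM in Control (18956 UMIs), a ratio of 0.368 (0.325 to 0.414). The log2 ratio ran between -1.87 in mesothelial-like cells and -0.72 in secretory-like cells, where 93.6 CPM in Explosion stood against 155 CPM in Control and 2-fold was not reached. Its level in the other classes was between 70.7% and 127% of the macrophage-like level in Explosion and between 45.2% and 126% in Control, well above the share of the macrophage marker list. Of the 12 clusters with at least 50 cells of both libraries, 11 had an interval below 1, the exception being the C1qa-led cluster at 0.65 (0.373 to 1.07). In mesothelial-like cells the class ratio was 0.272 and that of cluster 0 was 0.366. Slc7a11 imports the cystine that glutathione is made from. Over all kept cells it had 42 UMIs in Explosion (5.03 CPM) and 149 in Control (1.25 CPM), a ratio of 4.03 (2.79 to 5.7). Of these, 22 Explosion UMIs (12.6 CPM) and 6 Control UMIs (2.31 CPM) came from monocyte-like cells, a ratio of 5.46 (2.15 to 16.5). Slc7a11 passed the minimum in no class.

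Promoters of 5 of the 10 members (Slc40a1, Tfrc, Hpx, Gpx4 and Slc7a11) were in the RefSeq table for assembly GRCr8, and the 250 bases before the start were searched on both strands for the antioxidant response element (letters TGACNNNGC), the cyclic AMP element core (letters TGACGT), the CCAAT box, by its own letters, and the TATA box (letters TATAAA). These occur in 10.1%, 6.95%, 34% and 12.9% of 33469 promoters. Hpx holds 1 antioxidant response element and 3 CCAAT boxes, and Slc40a1 and Slc7a11 hold none of the 4 words. Tfrc and Gpx4 are printed because their ratios lay on opposite sides of 1 in macrophage-like and T-like cells. The 2 promoters below are both on the minus strand, at chr11:81690319-81690568 for Tfrc and chr7:10303630-10303879 for Gpx4, the most upstream of 3 listed starts; capitals mark the matches.
Tfrc promoter: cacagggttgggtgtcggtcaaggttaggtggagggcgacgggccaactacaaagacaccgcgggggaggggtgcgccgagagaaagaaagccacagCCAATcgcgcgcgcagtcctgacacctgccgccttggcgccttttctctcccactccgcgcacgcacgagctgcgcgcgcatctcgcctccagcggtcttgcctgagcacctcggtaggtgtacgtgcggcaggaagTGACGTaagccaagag
Gpx4 promoter: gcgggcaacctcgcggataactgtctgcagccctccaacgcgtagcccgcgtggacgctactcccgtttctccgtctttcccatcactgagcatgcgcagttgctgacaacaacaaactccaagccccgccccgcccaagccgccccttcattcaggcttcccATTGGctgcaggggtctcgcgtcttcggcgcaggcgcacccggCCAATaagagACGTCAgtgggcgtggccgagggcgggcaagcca
Both hold TGACGT, 16 bases before the start in Tfrc and 34 in Gpx4 on the opposite strand, where it reads ACGTCA. Tfrc holds 1 CCAAT box, 153 bases before its start, and Gpx4 holds 2, at 44 bases and, on the opposite strand, at 87 bases. Their matches do not overlap each other. Neither holds TGACNNNGC or TATAAA in this window, and no match says that a factor binds there.

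Other genes of iron and heme handling were read from 7 lists, of which 58 of 59 genes are in the files. They were read in macrophage-like cells where they had at least 30 UMIs in a library. Of all 13125 genes with that many, 9.25% were at least 2-fold lower and 33.9% at least 2-fold higher, 44.7% lay below the class median, and the median log2 ratio was 0.61. The lists are small, and none is said to stand apart from all genes. Of 8 heme synthesis genes, 3 were at least 2-fold lower and 0 higher, and 5 lay below the class median (median log2 ratio -0.05). Urod, an enzyme of this pathway, had a ratio of 0.477, against 1.73 for Fech, which inserts the iron, and 1.8 for Uros. Of 8 genes of mitochondrial iron and iron-sulfur clusters, 3 were lower and 1 higher, and 6 lay below the class median (median -0.41). The cluster scaffold Iscu had 120 CPM in Explosion and 325 CPM in Control (ratio 0.37), and the cluster carrier Glrx5 had a ratio of 0.449. Within cluster 4 the Iscu ratio was 0.585 (0.402 to 0.88) and that of Glrx5 was 1.14 (0.535 to 2.9). Slc25a37, the mitochondrial iron importer, had a ratio of 2.82.

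Among heme uptake genes, Cd163 came almost wholly from 1 macrophage-like cluster. Of 8 genes of heme uptake, transport and breakdown, 1 was lower and 4 higher (median 0.59). Cd163, the receptor for haptoglobin bound to hemoglobin, had 26.8 CPM in Explosion (59 UMIs) and 1.23 CPM in Control (68 UMIs), a ratio of 21.7. All 59 Explosion UMIs and 64 of the 68 Control UMIs lay in the C1qa-led cluster, which held 177 Explosion and 124 Control cells. Within that cluster Cd163 had 625 CPM in Explosion and 160 CPM in Control, a ratio of 3.9 (2.69 to 5.64). Lrp1, the receptor for heme bound to hemopexin, had 825 CPM in Explosion and 254 CPM in Control, a ratio of 3.24, and 3.72 (2.64 to 5.43) within cluster 4. Blvrb, which reduces biliverdin, had a ratio of 0.473, and Hmox2, the constitutive heme oxygenase, 0.748.

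The same cluster held much of the transferrin message. Of 4 ferroxidases and secreted carriers measured, 0 were lower and 3 higher (median 1.94). Tf, transferrin, had 181 UMIs in Explosion and 528 in Control macrophage-like cells, a ratio of 8.59, of which 158 Explosion and 240 Control UMIs lay in the C1qa-led cluster. Its ratio was 2.78 (2.26 to 3.42) in that cluster and 2.08 (1.3 to 3.18) in the other macrophage-like cells. Cp, the plasma ferroxidase ceruloplasmin, had a ratio of 5.91, and 3.76 without that cluster. Heph, a membrane ferroxidase, had one of 2.44, and Lcn2, which binds bacterial iron carriers, 1.86 on 4 Explosion and 54 Control UMIs.

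Of 5 genes of iron uptake and reduction, 0 were lower and 3 higher, and 1 lay below the class median (median 1.58). Slc39a8 and Steap3, a metal importer and an endosomal iron reductase, had ratios of 3.05 (19 Explosion UMIs) and 3.02 (17 Explosion UMIs), against 1.41 for Slc11a2, the endosomal iron importer, and 0.869 for Steap4. Of 7 genes of iron sensing, chaperones and ferritin turnover, 0 were lower and 2 higher (median 0.84). Ireb2, the iron regulatory protein 2, had 50 CPM in Explosion and 16.4 CPM in Control, a ratio of 3.04, and the iron chaperone Pcbp2 one of 2.31. Both intervals took in 1 within cluster 4. Pcbp1, the related chaperone, stood at 1.46, and Hfe, which binds the transferrin receptor, at 0.677 on 9 Explosion UMIs. Of 11 genes of glutathione, NRF2 and ferroptosis, 0 were lower and 2 higher (median 0.3), a smaller share than over all genes. These were Acsl4, which makes lipids open to peroxidation, at 2.85, and Gclc, the catalytic subunit of glutathione synthesis, at 2.17. Its partner Gclm stood at 0.808 and Nqo1, a common NRF2 target, at 0.959. Under TMM scaling the ratios in macrophage-like cells of Steap3, Slc39a8, Ireb2, Pcbp2, Lrp1, Slc25a37, Heph, Gclc and Acsl4 lay between 1.14 and 1.7, so that these were no longer past 2-fold, while Cd163 (11.4), Tf (4.51) and Cp (3.11) were.

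The genes with the pattern most like Ftl1 across the 16 points of class and library were Trappc2l (Pearson r 0.975), Txn1 (0.949), Atp6v0b, Fth1 and Prdx5 (0.943 each), of 8485 genes. For Hmox1 they were Sdk2 (0.956), LOC102556805 (0.95), Tbxas1 (0.944), Sh3pxd2b and Prcp (0.942 each). The points share 2 libraries and their depth, and the values are descriptions.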

How the data were processed

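Single-cell RNA of rat lung was measured in 1 explosion and 1 control library. The deposited matrices hold raw UMI counts per gene and barcode, written by cellranger 7.1.0 per the file headers. Per the submitters' processing notes, bcl2fastq 2.20 and Cell Ranger 6.1.1 were among the tools, and mRatBN7.2 and rn6 among the builds; the role of each, and the annotation counted, are not given in the sources. Only barcodes called as cells were used, 12642 in Explosion (9017416 UMIs) and 21117 in Control (139486248 UMIs).

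Barcodes under 200 genes (192 in Explosion, 21 in Control) or over 25% mitochondrial UMIs (8 in Explosion, 12 in Control) were removed. Scrublet (scanpy 1.11.5) then called 597 doublets in Explosion and 1853 in Control, which were removed. Both libraries were clustered together (2000 variable genes, 30 components, 15 neighbours, Leiden resolution 1) without the members, the pathway genes, or mitochondrial, ribosomal, hemoglobin and immunoglobulin genes. Names came from 195 markers, each counted where found at 3-fold the median cluster and in 10% of the cluster's cells. A cluster took the name of the class with the largest share of its own markers counted, with at least 3. Clusters led by cycling genes, or with more markers of another class among their top 10 genes, were left unnamed. Cycling cluster 5 (140 Explosion and 208 Control cells) had 6 macrophage markers and was left out of macrophage-like cells in this way. Other names could follow from other rules. UMIs were summed per class and library and given as CPM. Intervals are exact Poisson for levels, exact conditional for ratios and Clopper-Pearson for shares, at 95%, and cover counting error only; the floor for 0 is 3 counts. No test was made. The ratio code was tested on simulated counts. TMM factors came from edgeR 4.0.16.

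The text names all 10 members, from each pathway list the 2 highest and 2 lowest macrophage-like ratios among genes with 30 UMIs in a library (some of these are not reported here), and the 5 genes most like Ftl1 and Hmox1 on log2(CPM + 10). Members, lists and markers were chosen with earlier results of these data known.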

Additional observations from a re-analysis of the deposited data

How the results depend on the processing

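Of 331 alternative values of the 31 class ratios whose genes passed the minimum, 330 kept their direction and 315 their side of 2-fold; the exception in direction was Slc11a1 in macrophage-like cells with TMM factors. Those of the 6 main ratios that moved past their counting interval are given first. With TMM factors the ratios in macrophage-like cells were 0.101 for Ftl1, 0.16 for Fth1 and 2.12 for Hmox1, those in secretory-like cells 0.0885 for Ftl1 and 0.167 for Fth1, and that of Ftl1 in ciliated-like cells 0.0654. With totals taken without Scgb1a1, Rn45s and ribosomal genes they were 0.179 for Ftl1 and 0.284 for Fth1 in macrophage-like cells, and 0.169 and 0.318 in secretory-like cells. Relative to the class median, added after seeing the data, they were 0.138, 0.22 and 2.92 for Ftl1, Fth1 and Hmox1 in macrophage-like cells, 0.11 and 0.208 for Ftl1 and Fth1 in secretory-like cells, and 0.0759 for Ftl1 in ciliated-like cells. In macrophage-like cells thinning to 500 UMIs gave 0.204 for Ftl1 and 0.322 for Fth1, and classing by marker score 0.174 and 0.287. Without the C1qa-led cluster, added later, Fth1 stood at 0.311. In secretory-like cells keeping called doublets gave 0.145 for Ftl1 and 0.344 for Fth1, and Fth1 was 0.485 as a mean over cells and 0.449 after thinning. In the other classes, keeping called doublets gave 0.0913 for Ftl1 and 0.168 for Fth1 in T-like cells, 0.0645 and 0.143 in B-like cells, 0.0881 and 0.146 in NK-like cells, and 0.0751 for Ftl1 in mesothelial-like cells. Classing by marker score gave 0.078 for Ftl1, 0.157 for Fth1 and 0.209 for Gpx4 in B-like cells and 0.226 for Ftl1 in T-like cells. Cells with at least 500 UMIs gave 0.144 for Ftl1 and 0.265 for Gpx4 in B-like cells. For Gpx4 in ciliated-like cells thinning gave 0.176 and Leiden resolution 2 gave 0.262. The count of members at least 2-fold higher in macrophage-like cells, 1 where 27.5% of all genes were, became 2 with totals taken without those abundant genes. With no minimum CPM it became 4, which takes in Slc40a1 and Slc7a11 on 14 and 5 Explosion UMIs. The share of all genes under these settings is not given, so neither rise is read as a result. Beyond the scalings themselves and the lower minimum, the cause was not tested. Values for single clusters and for Ftl1 with LOC100360087 were likewise chosen after seeing the data. No copy of Fth1 was named as such in the files, so its sum with copies was not run. No paired analysis was possible because there is 1 library per group and no test. Depth limits the Explosion side: Slc40a1, Hpx and Slc7a11 held 50, 11 and 42 UMIs there.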

Other observations

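Red cell RNA was present in both libraries. Over all cells hemoglobin genes took 0.0339% of UMIs in Explosion and 0.0301% in Control. The 9 erythroid markers summed to 157 CPM in Explosion and 262 CPM in Control macrophage-like cells, and to 681 CPM in Explosion and 1425.6 CPM in Control T-like cells. Alas2, the erythroid enzyme of heme synthesis, had 4 of the 2200894 UMIs of Explosion macrophage-like cells and 129 of the 55167771 of Control ones. Their part in the levels of the heme genes was not tested.

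Neutrophil-like cells, 9 in Explosion and 305 in Control, were too few to compare. The Control ones held 14766.4 CPM of Fth1, second only to macrophage-like cells in that library, and 190 CPM of Hp, behind secretory-like and ciliated-like cells. ILC2-like cells, 167 in Explosion and 64 in Control, had the highest Tfrc level in both libraries, at 120 CPM in Explosion (10 UMIs) and 45.7 CPM in Control (6 UMIs), with intervals that overlapped those of the next class.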
